A study of Mus musculus with 2 samples.

Results

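Notch signalling was described here through 10 genes measured in mouse liver cells: the receptors Notch1, Notch2 and Notch3, the ligands Jag1, Jag2 and Dll4, the receptor-modifying enzyme Lfng, and the target genes Hes1, Hey1 and Heyl. They were taken by symbol from the 32286 genes and reporter features listed for each library, and all 10 were present in both. The series profiled hepatocytes, cells that its design text calls LPLCs, and hepatocellular carcinoma cells by droplet single-cell RNA sequencing, in which each captured transcript carries a unique molecular identifier (UMI) and a cell barcode. All mice were of C57BL/6J;129S6/SvEvTac background, and cells were collected as hepatocytes by liver perfusion. The DDC library pooled cells of 2 untreated wild-type mice (0 days, normal diet) with cells of 2 Sox9-EGFP mice fed DDC, a diet that injures the bile ducts, for 2 weeks. For the DDC and cMet library, cells of 2 untreated wild-type mice (0 days, normal diet) were combined with those of 2 Sox9-CreERT2:Rosa26-mTmG mice after 5 months of DDC and cMet treatment, with cMet introduced by HTVi, as the label abbreviates it. By their names, Sox9 is tied to EGFP in the first line and to the CreERT2 recombinase in the second. Sox9 is a transcription factor of bile duct and injured periportal liver cells.

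Each library is 1 sample and a mixture of treated and untreated mice that its barcodes do not separate, so no test was possible and no p-value is given. Treatment, duration, reporter line and library cannot be told apart. Where values come in pairs, the DDC library is given first. Intervals are exact, at 95%, and cover counting error only. Of 8694 and 18316 barcodes, 3613 and 12593 were kept (500 or more genes, 1000 or more UMIs, no more than 30% of UMIs from mitochondrial genes), with medians of 20397 and 3529 UMIs, and 8 of the kept barcodes occurred in both libraries. Cells were sorted into classes by summed marker levels that held none of the 10 genes. In the DDC library there were 2381 cells with high Alb (albumin, the main hepatocyte product), 262 biliary-marker cells (Epcam, Krt19, Krt7 and 7 further bile duct genes), 79 endothelial, 31 stellate and 373 Kupffer cells. The numbers in the DDC and cMet library were 9735, 87, 404, 167 and 1535. Both libraries are labelled as hepatocytes, and Alb-high cells made up 65.9% and 77.3% of the kept cells. All 10 markers of the endothelial, stellate and Kupffer classes had UMIs in the cells of their class. Classes also held markers of each other. Alb in biliary-marker cells stood at 85.5 and 100.3 UMIs per 10000, against 286.3 and 417.2 in Alb-high cells, while their 10 biliary markers summed to only 6.46 and 7.21, so they are not called bile duct cells here. Stellate cells held endothelial markers at 21.1% and 20.3% of the endothelial level, and Kupffer markers at 14.5% and 21.1% of the Kupffer level. Orders of levels are given among these 5 main classes. Smaller classes were monocyte or dendritic (30 and 53 cells), T or NK (23 and 18) and neutrophil (11 and 12).

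Notch receptors sit in the membrane of one cell and are activated by Jagged or Delta ligands on a neighbour. Binding exposes the receptor to cleavage by ADAM proteases and gamma-secretase, and the freed intracellular part joins the DNA-binding protein RBPJ and Mastermind coactivators to switch on Hes and Hey repressors. In the liver the pathway is known for bile duct formation, in which Jag1 and Notch2 are the main pair, and for the identity of sinusoidal and arterial endothelium. Fringe enzymes such as Lfng add sugars to Notch receptors and shift their preference between Delta and Jagged ligands.

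On GRCm38 (GENCODE annotation), Notch1 lies at chr2:26457903-26516663 (minus strand), Notch2 at chr3:98013527-98150361 (plus), Jag1 at chr2:137081456-137116644 (minus), Dll4 at chr2:119325784-119335962 (plus), Lfng at chr5:140607320-140615545 (plus) and Hes1 at chr16:30064384-30067796 (plus). Notch3 lies at chr17:32120820-32166852 (minus), Jag2 at chr12:112907819-112929776 (minus), Hey1 at chr3:8663359-8667256 (minus) and Heyl at chr4:123233556-123249875 (plus). RefSeq promoter windows (GRCm38.p6, 250 bases before to 50 after the start) were at hand for 7 of the 10 genes (all but Hes1, Hey1 and Heyl). They were searched on both strands for the RBPJ core GTGGGAA or its complement TTCCCAC, which 2097 of 32851 windows (6.38%) held. Of the 7 genes only Lfng held it, once, from 109 to 103 bases before its start. A match is no shown binding site, and the absence of these letters says nothing of RBPJ at the other genes. The stretch with the match (capitals) is shown with stretches of the 2 ligand genes on which the endothelial and biliary results turn, each 5′ to 3′ on its gene's strand and outside any annotated exon: Lfng from 150 to 51 bases before the start (chr5:140607191-140607290), Dll4 over the same distance (chr2:119325634-119325733), and Jag1 from 250 to 151 bases before it (chr2:137116671-137116770).
Lfng: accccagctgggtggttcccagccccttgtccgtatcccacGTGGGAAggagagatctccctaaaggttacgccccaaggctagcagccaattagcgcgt
Dll4: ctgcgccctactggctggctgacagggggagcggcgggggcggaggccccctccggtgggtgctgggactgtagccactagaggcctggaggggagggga
Jag1: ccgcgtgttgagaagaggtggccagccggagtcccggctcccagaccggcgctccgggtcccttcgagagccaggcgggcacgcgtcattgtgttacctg

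Of the 5 main classes, endothelial cells had the highest level of the receptor Notch1 and the lowest of Notch2. In endothelial cells Notch1 stood at 3.45 UMIs per 10000 (2.96 to 4.00) in the first library and 2.96 (2.78 to 3.14) in the second. It was next highest in stellate cells (1.48 and 1.27), then in Kupffer cells (0.546 and 0.359), biliary-marker cells (0.350 and 0.247) and Alb-high cells (0.206 and 0.0823). The intervals of neighbours in this order did not overlap in either library. In Kupffer cells at or below their median for markers of the other non-parenchymal classes, Notch1 was 0.404 and 0.265. These values lay nearer the biliary-marker levels, so the order of these classes depends on the cells taken. Outside the main classes, monocyte or dendritic cells held 1.17 and 1.42, and neutrophils 3.34 in the DDC library on 7 UMIs and 0 in the other. Endothelial Notch1 exceeded the Alb-high level by 4.06 on the log2 scale (3.83 to 4.29) and 5.17 (5.04 to 5.29). In cells thinned to 2000 UMIs each, 32 of 71 (45.1%) and 143 of 347 (41.2%) endothelial cells held a Notch1 UMI, against 4.93% and 1.91% of Alb-high cells. Without thinning the shares were 72.2% and 74.0% against 29.2% and 8.44%, at median depths of 6032 and 7280 UMIs against 16836 and 2521. Notch1 was thus a common transcript among endothelial cells of both libraries.

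Notch2, the receptor tied to bile duct formation, was highest in biliary-marker cells and lowest in endothelial cells of both libraries, among the 5 main classes. In the DDC library it stood at 0.406 UMIs per 10000 in biliary-marker cells (0.372 to 0.442), 0.301 in Alb-high cells (0.287 to 0.316), 0.255 in Kupffer cells (0.220 to 0.295), 0.158 in stellate cells (9 UMIs) and 0.0397 in endothelial cells (2 UMIs in all). Levels in the DDC and cMet library were 0.607, 0.251, 0.278, 0.286 and 0.0905 in the same order of classes. Its log2 ratio of endothelial to Alb-high cells was -2.93 (-5.97 to -1.07) in the first library and -1.47 (-2.03 to -0.96) in the second. Stellate and Kupffer intervals overlapped in both libraries. In the DDC library the endothelial interval (0.0048 to 0.143) also overlapped the stellate one (0.0723 to 0.300), so the lowest place there is not settled. Monocyte or dendritic cells stood at 0.629 (14 UMIs) and 0.285 (12 UMIs), and neutrophils at 0.955 and 0.674 on 2 and 3 UMIs. Notch3, a receptor of mural cells, was near the limit of detection, with 12 and 20 UMIs among all kept cells of the respective libraries. Of these, 4 and 6 lay in stellate cells and 0 and 6 in endothelial cells, and Kupffer cells held 0 in both libraries.

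**Figure D1:**
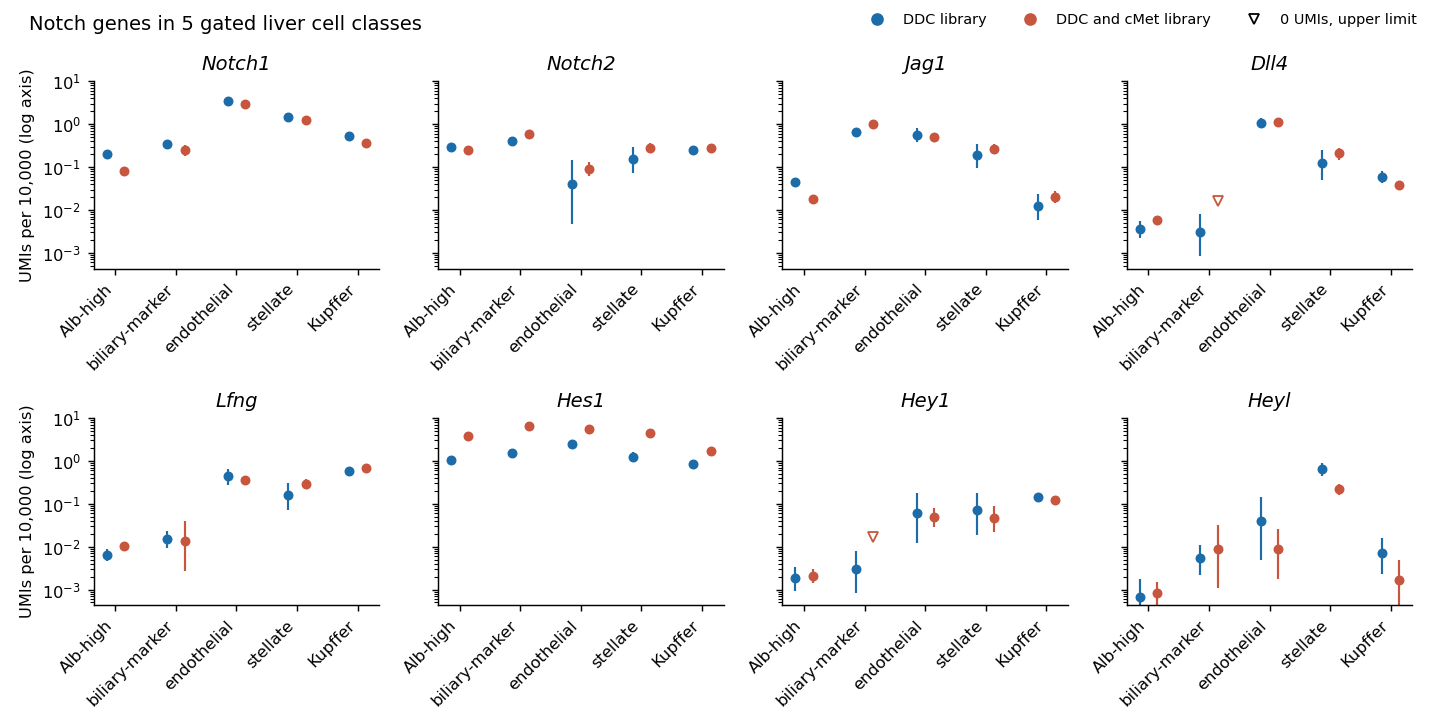
Level of 8 genes in each gated class, in UMIs per 10000 on a log axis, with exact 95% Poisson intervals (vertical lines, counting error only, cut at the axis foot for Heyl); blue is the DDC library, red the DDC and cMet library, and open triangles are upper limits for classes with 0 UMIs. Among these 5 classes Notch1 and Dll4 were highest in endothelial cells, Jag1 in biliary-marker cells, Hey1 and Lfng in Kupffer cells and Heyl in stellate cells, and Hes1 was present in every class.

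Among the ligands, Jag1 was highest in the biliary-marker cells, which also held Alb, and Dll4 in the endothelial cells. The Jag1 level in biliary-marker cells was 0.647 UMIs per 10000 (0.604 to 0.692) in the first library and 1.01 (0.884 to 1.15) in the second. In Alb-high cells it stood at 0.0450 and 0.0182. The log2 ratio was 3.85 (3.64 to 4.05) in the first library and 5.80 (5.53 to 6.07) in the second. A Jag1 UMI was found in 206 of 262 and 64 of 87 biliary-marker cells, and, after thinning, in 11.8% and 11.5% of them against 0.907% and 0.406% of Alb-high cells. Jag1 RNA was therefore spread over most cells of the biliary class rather than held by a few. The biliary Jag1 levels of the libraries had a log2 ratio of 0.65 (0.43 to 0.86), which became -0.16 after thinning and -2.28 with clusters in place of gates.

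Jag1 in endothelial cells stood at 0.575 (0.385 to 0.826) and 0.511 (0.438 to 0.592) UMIs per 10000. Its interval overlapped that of biliary-marker cells in the DDC library and lay below it in the other. In the DDC library its 29 UMIs came from 6 of 79 cells, and 20 of them from 1 cell. In the DDC and cMet library 175 UMIs came from 59 of 404 cells, and the 5 highest cells held 35.4% of them. Among endothelial cells with at least 10000 UMIs the median was 0 in both libraries and the highest cell reached 10.2 and 10.9 UMIs per 10000. A cell of this depth is expected to hold few Jag1 UMIs at these levels, so a median of 0 does not give the share of cells that express the gene, and only 12 such cells were in the DDC library.

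Dll4, the Delta ligand of endothelium, stood at 1.09 UMIs per 10000 (0.822 to 1.42) and 1.10 (0.995 to 1.22) in endothelial cells, with UMIs in 27 of 79 and 182 of 404 cells. In Alb-high cells it stood at 0.00354 and 0.00588, a log2 ratio of 8.27 (7.52 to 9.07) and 7.55 (7.20 to 7.92). The Alb-high level was 0.324% and 0.533% of the endothelial level, and the 10 endothelial markers together stood at 0.355% and 0.476%. Dll4 in Alb-high cells thus lay close to the share of the endothelial markers, and the source of these UMIs was not tested. The Notch1 level there was 5.98% and 2.79% of the endothelial level, above the share of the markers in both libraries.

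Dll4 also appeared in Kupffer cells (0.0603 and 0.0376) and stellate cells (0.123 and 0.208), where endothelial markers were present as well, at 8.66% and 5.79% of the endothelial level in Kupffer cells. In the cells of each class at or below its median for markers of the other classes, a set chosen after seeing the data, Kupffer Dll4 was 0 and 0.00234, and stellate Dll4 was 0 in the DDC and cMet library. Notch1 in those cells kept 0.404 and 0.265 UMIs per 10000 in Kupffer cells, and 1.02 and 0.517 in stellate cells. Dll4 in Kupffer cells, and in stellate cells of the DDC and cMet library, thus went with the summed markers of the other non-parenchymal classes. Notch1 did so in part. The sum joins endothelial markers with those of a further class, so it cannot tie either gene to endothelial markers alone. Jag2, the other Jagged ligand, had 15 and 9 UMIs among all kept cells. Of the 15 in the DDC library, 8 lay in Alb-high and 5 in biliary-marker cells, and stellate cells held 0 in both libraries.

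**Figure D2:**
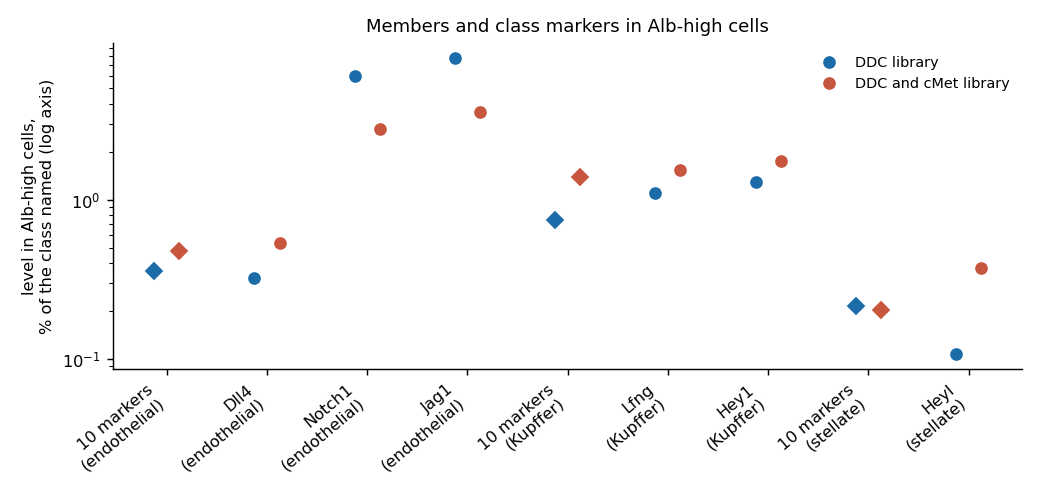
Level of members in Alb-high cells as a percentage of their level in the class named under each point, on a log axis (circles), beside the same percentage for the 10 markers of that class (diamonds); blue is the DDC library, red the DDC and cMet library. Dll4 lay close to the endothelial markers at 0.324% and 0.533%, while Notch1 lay at 5.98% and 2.79%.

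Of the 5 main classes, Kupffer cells, the resident macrophages of the liver, had the highest levels of Lfng and Hey1. Lfng stood at 0.579 UMIs per 10000 (0.525 to 0.638) and 0.679 (0.640 to 0.718) in Kupffer cells, 0.436 and 0.368 in endothelial cells, 0.158 and 0.297 in stellate cells, and at most 0.0154 in the 2 epithelial classes. The endothelial Lfng interval of the DDC library (0.2735 to 0.6607) overlapped that of Kupffer cells. The Kupffer level exceeded the Alb-high level by 6.50 (6.02 to 7.02) and 6.01 (5.76 to 6.28) on the log2 scale. A Lfng UMI was found in 215 of 373 and 702 of 1535 Kupffer cells. T or NK cells had similar levels, 0.566 (15 UMIs) and 0.663 (6 UMIs), and after thinning 21.7% and 16.7% of them held one, against 9.69% and 14.3% of Kupffer cells. In the Kupffer cells with the fewer markers of other classes, Lfng was 0.516 and 0.631. In such cells of the DDC and cMet library it was 0.215 in endothelial cells, in place of 0.368, and 0.110 in stellate cells, in place of 0.297, while endothelial cells of the DDC library had 0.471. Hey1, a repressor best known as a Notch target in endothelium, stood at 0.143 (0.117 to 0.174) and 0.120 (0.104 to 0.137) in Kupffer cells. It stood at 0.0595 and 0.0496 in endothelial cells, on only 3 and 17 UMIs, and at 0.0703 and 0.0468 in stellate cells, on 4 and 9 UMIs. In the DDC library the endothelial (0.0123 to 0.174) and stellate (0.0191 to 0.180) Hey1 intervals overlapped that of Kupffer cells. Of all 143 Hey1 UMIs in kept cells of the DDC library, 102 lay in Kupffer cells, and in the cells with the fewer markers of other classes Hey1 was 0.150 and 0.146. As shares of the Kupffer level, Alb-high cells held 1.11% and 1.55% of Lfng and 1.30% and 1.74% of Hey1, beside 0.740% and 1.39% of the Kupffer markers.

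Heyl, a target gene of vascular mural and related cells, was highest in stellate cells among the 5 main classes. It stood at 0.632 UMIs per 10000 (0.443 to 0.875) in 31 stellate cells of the DDC library and 0.219 (0.158 to 0.295) in 167 of the DDC and cMet library, with UMIs in 15 and 33 cells. The other 4 classes had at most 0.0397. Stellate cells held 50.7% and 44.2% of the Heyl UMIs in kept cells. Cells set aside as mixed, with no clear lead of any gate, held 21.1% and 33.7%. In the DDC library 5 cells held 58.3% of the stellate Heyl UMIs. Stellate Heyl was lower in the DDC and cMet library, with a log2 ratio of -1.53 (-2.21 to -0.85).

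A gene was counted as past the fold when its level differed at least 2-fold and the 2 sides together held at least 50 UMIs. Among members that could be counted, 5 of 6 were at least 2-fold higher in endothelial than in Alb-high cells of the DDC library (Notch1, Dll4, Jag1, Lfng and Hes1), where 34.2% of all genes were. In the DDC and cMet library they were 4 of 6, without Hes1, against 43.7%. Notch2 alone was at least 2-fold lower in both, where 15.7% and 17.5% of all genes were. In Kupffer cells 4 members (Notch1, Dll4, Hey1 and Lfng) of 7 were higher in each library, against 27.2% and 34.1% of all genes. One member was lower in each, Jag1 in the first and Hes1 in the second, against 22.9% and 22.1%. In stellate cells 2 of 4 were higher (Notch1 and Jag1) against 31.2%, and 5 of 7 (Notch1, Jag1, Dll4, Heyl and Lfng) against 39.5%. In biliary-marker cells 2 of 5 were higher (Jag1 and Lfng) against 15.2%, and 3 of 6 (Jag1, Notch1 and Notch2) against 38.2%. The non-parenchymal classes thus differed from Alb-high cells in a large part of all genes, and these counts are small. Some members reached 50 UMIs mainly through the class where they were high, such as Hey1 in Kupffer cells of the DDC library (102 UMIs against 11). Their calls are no support. With 200 UMIs required, 3 of 4 and 4 of 6 were higher in endothelial cells, and 2 of 5 and 3 of 6 in Kupffer cells. They were 2 of 4 in stellate cells of both libraries, and 1 of 4 and 3 of 4 in biliary-marker cells. The shares of all genes above are for 50 UMIs and are no background for these counts. No such share was drawn up for 200 UMIs, so the counts at 200 UMIs cannot be judged against all genes.

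Biliary Notch1 in the DDC and cMet library rests on 55 UMIs in 36 of 87 cells. Its log2 ratio to Alb-high cells, 1.59, became -0.74 after thinning, when 1 cell kept a UMI. The Lfng ratio of 1.26 in the DDC library rests on 20 UMIs. Jag1 kept its direction in both libraries under every alternative tried, between 3.41 and 4.38 and between 3.62 and 6.16 on the log2 scale.

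Hes1, the main Notch target in liver epithelium and a gene also under other signals, was present in every class and was higher in the DDC and cMet library in all 5. In Alb-high cells it stood at 1.02 UMIs per 10000 (0.997 to 1.05) in the DDC library and 3.81 (3.77 to 3.84) in the other. Biliary-marker cells held 1.51 and 6.43, endothelial cells 2.44 and 5.47, stellate cells 1.25 and 4.36, and Kupffer cells 0.829 and 1.69. The log2 ratios between libraries were 1.90 (1.86 to 1.94), 2.09 (1.99 to 2.19), 1.17 (0.90 to 1.44), 1.81 (1.46 to 2.18) and 1.02 (0.90 to 1.15). The intervals of the 2 libraries did not overlap in any class. These 5 comparisons share the same 2 libraries and are not independent. Over all genes the median log2 ratio between libraries was -0.23 in Alb-high cells, 0.12 in biliary-marker cells and between -0.09 and -0.06 in the other classes, small beside the Hes1 ratios. In endothelial and Kupffer cells Hes1 was under 2-fold under some of the alternatives, with lowest log2 ratios of 0.98 and 0.82.

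No other member was at least 2-fold higher between libraries in a class, where it could be counted: Hes1 was 1 of 6 in Alb-high cells (6.13% of all genes were higher), 1 of 4 in biliary-marker cells (5.73%), 1 of 5 in endothelial cells (5.88%), 1 of 6 in stellate cells (6.11%) and 1 of 6 in Kupffer cells (5.21%). Notch1 and Jag1 were at least 2-fold lower in Alb-high cells of the DDC and cMet library, where 10.1% of all genes were, and Heyl in stellate cells, against 2.19%. Alb-high Notch1 went from 0.206 to 0.0823, a log2 ratio of -1.33 (-1.45 to -1.21), and Jag1 from 0.0450 to 0.0182, a log2 ratio of -1.31 (-1.57 to -1.05). Notch2 differed less, with a log2 ratio of -0.26 (-0.35 to -0.18). Receptor, ligand and target RNA in Alb-high cells thus did not differ between libraries in 1 direction. Alb-high cells held Jag1 at 6.96% and 1.795% of its level in biliary-marker cells, beside 10.76% and 2.476% for the biliary markers. The summed biliary markers in Alb-high cells were also lower in the DDC and cMet library, at 0.1785 against 0.695. The source of the Jag1 UMIs in Alb-high cells was not tested.

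Hes1 varied widely among cells. In Alb-high cells with at least 10000 UMIs its median was 0.627 UMIs per 10000 in the DDC library and 2.68 in the other, and the 90th percentile 2.50 and 9.27. Of these cells in the DDC and cMet library, 440 of 3097 held no Hes1 UMI. After thinning, 16.0% and 41.7% of Alb-high cells held one (48.9% and 54.8% without thinning). The library difference was present at each depth: Alb-high cells under 3000 UMIs stood at 0.818 and 2.98, those from 3000 to under 10000 at 1.04 and 3.20, and deeper cells at 1.03 and 3.90.

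Genes of the immediate-early response (Fos, Jun, Egr1 and 6 others), which tissue dissociation can raise, were also higher in the DDC and cMet library in every class. Their summed level was 17.4 and 24.2 UMIs per 10000 in Alb-high cells, 35.0 and 60.7 in biliary-marker cells, 19.2 and 64.7 in endothelial cells, 41.1 and 85.9 in stellate cells and 22.2 and 54.7 in Kupffer cells. The mitochondrial share of Alb-high cells was 7.34% and 10.8%. Within the DDC and cMet library Hes1 was lower where this share was higher, at 4.21 in Alb-high cells under 10%, 3.54 from 10% to under 20% and 2.30 from 20% to 30%. The same groups of the DDC library stood at 1.0, 1.11 and 1.39, the opposite order. The part of either in the Hes1 difference was not tested.

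**Figure D3:**
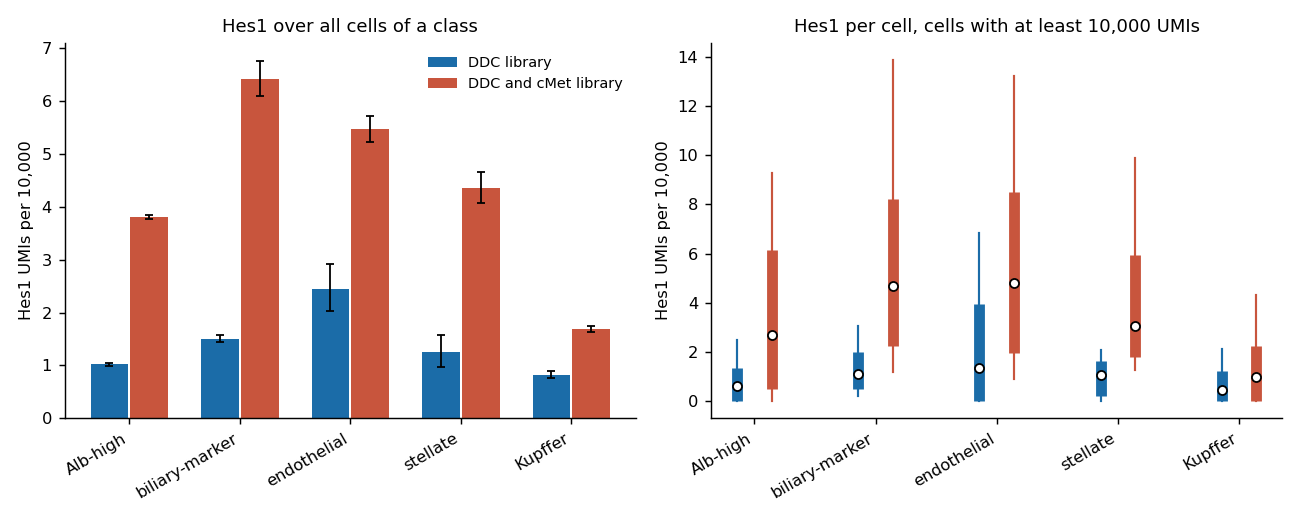
Left, Hes1 in UMIs per 10000 over all cells of each class with exact 95% Poisson intervals; right, Hes1 per cell among cells with at least 10000 UMIs, where the thin line spans the 10th to 90th percentile, the thick line the quartiles and the circle is the median. Red bars (DDC and cMet library) stand above blue bars (DDC library) in all 5 classes, from 1.02 to 3.81 in Alb-high cells.

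In the DDC library, EGFP from the Sox9 reporter allowed cells to be ordered by reporter level. Cells with at least 5000 UMIs in none of the non-epithelial classes were split at 0, under 1, under 3 and at least 3 EGFP UMIs per 10000, which gave 1075, 494, 239 and 190 cells. Those with 0 include the untreated wild-type mice, which lack the reporter. Hes1 stood at 0.839, 1.21, 1.32 and 1.69 UMIs per 10000 along these groups, and Jag1 at 0.0713, 0.137, 0.177 and 0.499. Notch2 stood at 0.289, 0.321, 0.356 and 0.407, and Notch1, with no steady order, at 0.241, 0.235, 0.20 and 0.311. Between the outer groups Jag1 differed by 2.81 and Hes1 by 1.01 on the log2 scale, so 2 of 5 members were at least 2-fold higher, against 11.5% of all genes.

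The class make-up of these groups differed: 112 of the 190 cells with the most EGFP were biliary-marker cells, against 47 of 1075 without EGFP. Within Alb-high cells alone (908, 366, 147 and 42 cells), Hes1 stood at 0.831, 1.24, 1.31 and 1.28, and Jag1 at 0.0331, 0.0522, 0.0538 and 0.123. There Jag1 was the 1 member of 4 past the fold, against 5.36% of all genes, and it rested on 24 UMIs in the cells with the most EGFP. Notch1 went the other way in Alb-high cells, from 0.221 to 0.134. Within biliary-marker cells Jag1 stood at 0.511, 0.601, 0.601 and 0.728, and Hes1 at 1.17, 1.28, 1.0 and 1.91. Hes1 thus differed mainly between Alb-high cells with and without EGFP, and among biliary-marker cells mainly at the highest EGFP. The immediate-early sum also followed EGFP in Alb-high cells, at 15.2, 19.2, 20.6 and 24.1 UMIs per 10000, and its part was not tested.

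**Figure D4:**
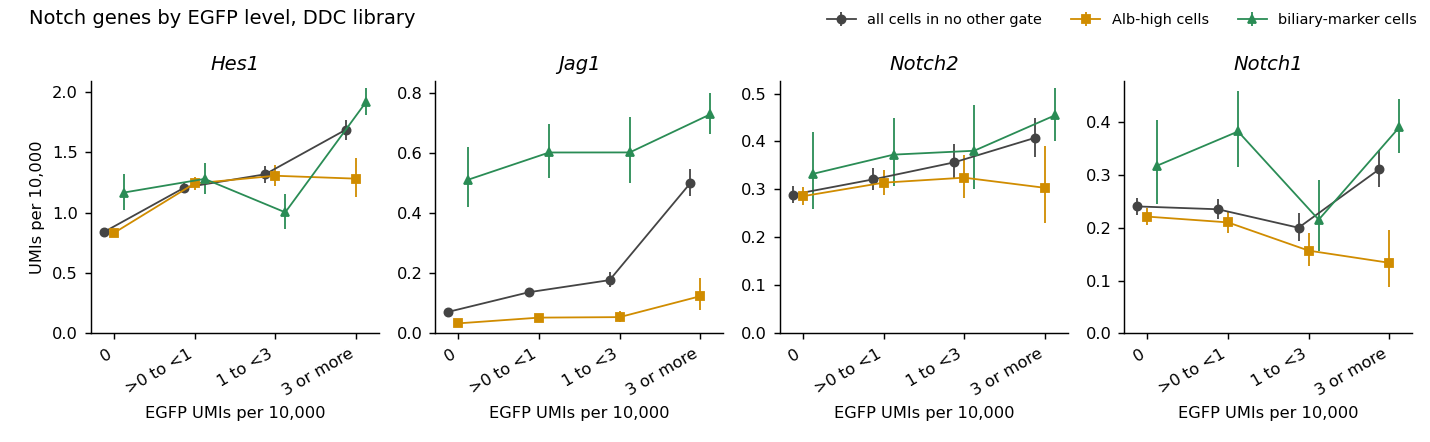
Hes1, Jag1, Notch2 and Notch1 in UMIs per 10000 (vertical axes from 0, one per gene) in cells of the DDC library grouped by EGFP level, with exact 95% Poisson intervals; grey is all cells in none of the non-epithelial classes, ochre Alb-high cells and green biliary-marker cells. Jag1 reached 0.499 in the grey group of highest EGFP and 0.123 in Alb-high cells of that group.

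Hepatocytes differ along the axis from the central vein to the portal tract, next to which the bile ducts lie. Alb-high cells with at least 5000 UMIs were divided into 3 groups of nearly equal size by the share of 6 periportal genes (Cyp2f2, Hal, Sds and others) in the UMIs of these and 6 pericentral genes (Cyp2e1, Glul and others). The periportal share reached 0.761 and 0.772 in the pericentral groups, and began at 0.935 and 0.953 in the periportal groups. The groups are thus relative, and the pericentral groups include cells with mostly periportal UMIs. Whether the groups differ in their share of treated cells cannot be told. In the DDC library Hes1 stood at 0.686 UMIs per 10000 in the pericentral, 0.988 in the middle and 1.33 in the periportal group. The order in the DDC and cMet library was opposite, with 4.33, 4.21 and 3.16. The log2 ratio of periportal to pericentral Hes1 was 0.95 (0.85 to 1.05) in the first and -0.45 (-0.49 to -0.42) in the second. Both kept their sign under every alternative tried, between 0.88 and 1.0 and between -0.69 and -0.41.

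Jag1 in Alb-high cells followed the periportal direction in the DDC library, with 0.0193, 0.0381 and 0.0695 and a log2 ratio of 1.85 (1.29 to 2.45). Jag1 in the DDC and cMet library stood at 0.0139, 0.0168 and 0.0185, with a log2 ratio of 0.41 (-0.11 to 0.93). Spp1, an osteopontin gene of bile duct and injured periportal cells, had 2.83 and 50.4 UMIs per 10000 in the pericentral and periportal groups of the DDC library, against 1.48 and 7.70 in the second library. Immediate-early genes moved with Hes1 in both libraries, from 15.1 to 19.7 in the DDC library and from 29.1 to 19.9 in the other. Their part was not tested.

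**Figure D5:**
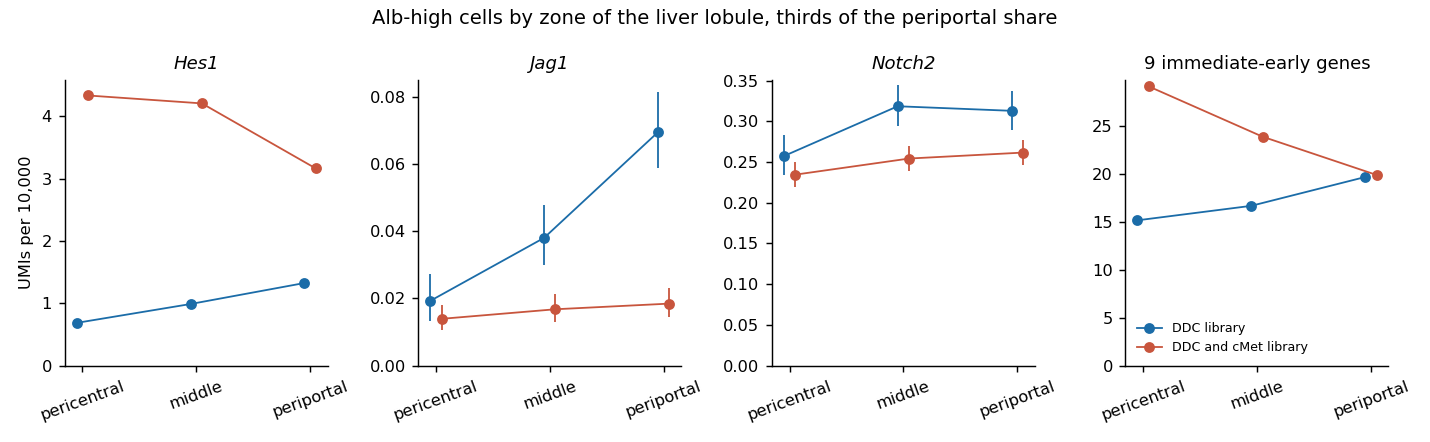
Hes1, Jag1, Notch2 and the sum of 9 immediate-early genes in UMIs per 10000 (vertical axes from 0) in Alb-high cells split into 3 groups of nearly equal size by the periportal share, with exact 95% Poisson intervals for single genes; blue is the DDC library, red the DDC and cMet library. Hes1 went from 0.686 to 1.33 toward the portal side in the DDC library and from 4.33 to 3.16 in the other.

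Of 53 other genes of the pathway (ligands, proteases, gamma-secretase subunits, coactivators, corepressors and modifiers), 25 of 39 that could be counted were at least 2-fold higher and 2 lower in endothelial than in Alb-high cells of the first library, against 30 of 45 higher and 2 lower in the second. Of all genes 34.2% and 43.7% were higher and 15.7% and 17.5% lower. The median log2 ratios were 1.35 and 1.65, beside 0.63 and 0.79 over all genes tested. Examples in the DDC and cMet library were Nrarp, a feedback inhibitor induced by Notch (0.426 UMIs per 10000 against 0.00379), and Mfng, a second Fringe enzyme (0.379 against 0.00290). Of 8 further known targets, 2 of 7 were higher and 2 lower in the DDC library, and 4 of 8 higher and 1 lower in the other. Among them, the arterial ephrin Efnb2 stood at 1.45 and 1.40 in endothelial against 0.00927 and 0.00804 in Alb-high cells. In biliary-marker cells 8 of 40 pathway genes were higher in the DDC library and 21 of 44 in the other, beside 15.2% and 38.2% of all genes, with medians of 0.47 and 1.02 beside 0.37 and 0.77. These shares lay near those of all genes. The coactivator Maml3 stood at 0.127 against 0.0330 in the DDC library. Psen2, a catalytic subunit of gamma-secretase, was lower there, at 1.90 against 5.70. Sox9, one of the known targets, stood at 3.23 and 3.25 in biliary-marker cells against 0.857 and 0.212 in Alb-high cells.

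In Kupffer cells 22 of 43 pathway genes were higher and 3 lower in the first library, and 26 of 46 higher and 3 lower in the second. Of all genes 27.2% and 34.1% were higher and 22.9% and 22.1% lower. The medians were 1.09 and 1.17 beside 0.19 and 0.41. The coactivator Maml2 stood at 0.188 and 0.216 against 0.00337 and 0.00417. In stellate cells 22 of 40 and 29 of 45 were higher, beside 31.2% and 39.5% of all genes, with medians of 1.04 and 1.33 beside 0.52 and 0.72. Between libraries few pathway genes passed the fold. In Alb-high cells 3 of 45 were higher and 3 lower, beside 6.13% and 10.1% of all genes, among them Aph1c, a gamma-secretase subunit (0.0765 against 0.0140), and Dtx4, a Deltex ubiquitin ligase (0.0335 against 0.118). In biliary-marker cells 2 of 38 were higher, beside 5.73%, one of them Rbpj itself (0.656 against 0.279). Id1, a listed target that also responds to BMP signals, was lower there (0.459 against 2.04). Along EGFP 5 of 39 pathway genes were higher, beside 11.5%, among them Maml3 (0.123 against 0.0384). The counts between libraries and along EGFP were near the shares of all genes, and nothing particular to the pathway is read from them. In Kupffer and stellate cells the counts of higher pathway genes lay above the shares of all genes, and the cause was not tested.

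Pairs of members in the same cell were counted after thinning. In endothelial cells of the DDC and cMet library 30 of 347 cells held both Notch1 and Dll4, where the product of the shares gives 25.1, and 84 held Notch1 and Hes1, where it gives 80.4. In Alb-high cells of that library 119 of 5670 held Notch2 and Hes1 (product 115.6), and in biliary-marker cells of the DDC library 9 of 262 held Jag1 and Hes1 (product 7.81). Other pairs lay further from the product. In biliary-marker cells Notch2 and Jag1 met in 6 and 3 cells (products 2.96 and 1.49). Notch1 and Hes1 met in 19 Alb-high cells of the DDC library (product 13.96) and in 18 Kupffer cells of the other (product 22.6). These differences were not tested.

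The genes most like 8 of the members, all but Notch3 and Jag2, which had too few UMIs, across 13 class-by-library levels were found by Pearson correlation of log2(UMIs per 10000 + 0.05) over 12777 genes. The points share 2 libraries and their depth, so the values only describe the pattern. They were Tacc1 for Notch1 (0.985), Specc1 for Notch2 (0.913), Pcgf2 for Jag1 (0.940), Jam2 for Dll4 (0.985), Fam111a for Lfng (0.954), Sdc3 for Hey1 (0.958) and Fam171b for Heyl (0.994). Hes1 was most like Tmem267 (0.913), followed by Nr1d2 (0.909), a repressor of the circadian clock.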

How the data were processed

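The authors deposited raw UMI counts for each barcode and gene, not normalized, with gene and barcode lists as text (other, no unit). Counting was by Cell Ranger against mm10, version 6.0.1 per the submitters' processing notes but 5.0.1 per the file headers, and the version is therefore uncertain. UMIs were summed over a class and divided by its total. Classes needed at least 3 markers with a UMI and summed levels of 100 (Kupffer), 40 (endothelial and stellate) 3 (biliary) or 20 (smaller classes) UMIs per 10000; cells that passed none of these gates were Alb-high at 100 or more Alb UMIs per 10000. These cuts were set on the marker sums after the data were seen. Of the biliary-marker cells 19.5% and 18.4%, and of other classes at most 10.8%, lay within 25% above the cut. No doublet caller was run: cells in 2 gates without a 2-fold lead, 60 and 146, were set aside as mixed, and 360 and 433 passed no gate. A side with 0 UMIs was set at 3 UMIs, and such a bound is used only where it gives a direction.

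All 10 members are named. Of other pathway genes, those named come from the up to 4 past the fold with the largest ratio in each direction, and the likeness rule gave 3 genes for each of the 8 members with at least 50 UMIs. Members and lists were chosen with earlier results of these data known. The ratio interval was tried on simulated independent counts. These leave out the uneven spread of UMIs over cells, so the trial cannot judge the interval for such spread. Alternatives were a stricter cell filter (1000 genes, 3000 UMIs, 20% mitochondrial), other marker cuts, means over cells, thinning to 2000 UMIs and totals without mitochondrial UMIs. Further ones were Leiden clusters in place of gates, cells with less Alb, other EGFP sets, at least 200 UMIs and a pseudocount of 0.2. Cells with fewer markers of other classes and cells that passed 1 gate only were added after seeing the data. Counts were handled with pandas 2.3.3, numpy 2.4.6 and scipy 1.17.1 in Python 3.11.15, clustered with scanpy 1.11.5 and leidenalg 0.10.2, and drawn with matplotlib 3.10.9.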

Additional observations from a re-analysis of the deposited data

Results flagged for a closer look

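Hes1 went in opposite directions in the 2 libraries between the relative pericentral and periportal groups of Alb-high cells. The log2 ratio of periportal to pericentral Alb-high cells was 0.95 in the DDC library and -0.45 in the DDC and cMet library, each with an interval away from 0. Notch2 in Kupffer against Alb-high cells also had opposite signs, with log2 ratios of -0.24 and 0.15. Their intervals ran from -0.47 to -0.02 and from 0.01 to 0.28, and with 1 library on each side neither difference was tested.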

How the results depend on the processing

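Of 796 log2 ratios under alternatives, 618 stayed inside the counting interval of the main value and 169 left it. A further 9 changed sign from a main value whose interval lay away from 0. Sign changes from a main interval that included 0 are counted among the 618 or the 169. Examples are Hes1 in stellate against Alb-high cells of the DDC library (0.29, lowest -0.44) and endothelial Jag1 between libraries (-0.17, highest 0.67). Thinning to 2000 UMIs turned Notch2 in stellate against Alb-high cells of the DDC library to 0.058, Notch1 in biliary-marker against Alb-high cells of the other library to -0.74, and biliary Jag1 between libraries from 0.65 to -0.16. Clusters turned biliary Jag1 and Notch2 between libraries to -2.28 and -0.24, and Kupffer Dll4 between libraries to 0.51. Cells with less Alb turned Notch2 in Kupffer cells of the DDC and cMet library to -0.0023, Alb-high cells alone turned Notch1 by EGFP to -0.73, and cells with fewer markers of other classes turned Dll4 in Kupffer cells of the DDC and cMet library to -1.33. Counts of members past 2-fold kept within 1.5 times in 170 of 206 cases. Members higher in stellate cells between libraries were 2 in place of 1 under the stricter filter, the cut divided by 2, means over cells, cells with less Alb and cells with fewer other markers. Those higher in Alb-high cells between libraries became 3 at the higher cut and 2 with means over cells or clusters, and those lower became 1 with means over cells. Those higher in Kupffer cells between libraries became 0 at the higher cut, with less Alb and with fewer other markers, and in endothelial cells 0 with clusters and with less Alb. Heyl lost its 2-fold in stellate cells at the higher cut and with 200 UMIs required (0 members lower). For biliary against Alb-high cells the count became 1 in the DDC library with means over cells, thinning, clusters and 200 UMIs, and 1 in the other with clusters. For Kupffer cells of the DDC library the count higher became 2 with thinning, fewer other markers and 200 UMIs, and the count lower 0 with thinning and the lower cut. In the other library the count lower became 0 with means over cells and thinning and 2 with fewer other markers. For endothelial cells the count higher became 3 in the DDC library with 200 UMIs, and the count lower became 0 with thinning there and with clusters in the other library. For stellate cells of the DDC and cMet library the count higher became 2 with 200 UMIs, and by EGFP it became 1 with means over cells, totals without mitochondrial UMIs and Alb-high cells alone. The cause of each was not tested. Hes1 between libraries stayed above 0.82 in every class and setting. No stellate cluster was found, so that alternative gave no stellate value, and a split by tdTomato was not run because kept cells held 2 such UMIs. Of the 24 genes most like a member, 18 stayed with the other pseudocount. No paired analysis was possible because each library is 1 sample.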
